A study of Mus musculus with 96 samples.

Results

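Ribosome footprints in the 3' untranslated regions (3' UTRs) of mouse mRNAs are described here for E11.5 neural tubes. Of 22422 coding genes in the count table, 20132 had a 3' UTR row, and these are the genes described. Each gene was read from 1 transcript, that with the highest total coding count, and its 3' UTR counts were set against its coding counts, which leave out the first 45 and the last 15 bases of the coding sequence. Wild-type embryos were C3HeB and mutant embryos were C3HeB/Eif3cXs-J/+, which are heterozygous for the Xs-J allele of Eif3c, a subunit of the initiation factor eIF3, on the same background. There were 3 pools of each genotype, numbered 1 to 3 here, and each pool gave a footprint library and a poly(A) RNA library from dissociated cells of the neural tubes of a litter. A pool mixes the embryos of a litter, and the cells were treated with papain before lysis in cycloheximide. The sample titles label pools 1 to 3 as TC1, TC5 and TC6 in both genotypes. What pools with the same label share was not given in the sources used here.

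A ribosome that reaches a stop codon is released by the termination factors eRF1 (Etf1) and eRF3 (Gspt1), and its subunits are then split by Abce1. Footprints beyond the stop codon can come from ribosomes that read through the stop, from ribosomes that were not recycled, or from protected RNA that is not a ribosome footprint. A ribosome that sits on the stop codon itself protects bases on both sides of it. In the count table a read that touches both the coding sequence and the 3' UTR is counted in both, so a 3' UTR count holds ribosomes at the stop codon as well as reads past it.

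The sequence around the stop codon is shown for genes on which the results turn. Each line gives 12 bases before the stop codon, the stop codon in capitals and 12 bases after it, 5' to 3', from the GENCODE vM21 transcripts of mm10. Mdh1 and Mapk10 are genes known for stop codon readthrough, and in both the stop is followed by CTAG. Hspa5 had a higher 3' UTR to coding ratio in the mutant pools and Rack1 a lower one. Mex3a and Hba-x differ in where their 3' UTR reads lay.
Mdh1: ctctcctctgcgTGActagacactcgt
Mapk10: ggttgttgcaggTGActagccgcctgc
Hspa5: aaagatgagttgTAGgtgcactgatct
Rack1: attggtacccgcTAAaagttttatgac
Mex3a: cgaatattttccTAAgctccatgtccc
Hba-x: gagaagtaccgcTAAgctccaccgcca
These stop codons lie at chr11:21557443-21557445 (minus strand) for Mdh1, chr5:102913185-102913187 (minus) for Mapk10, chr2:34776111-34776113 (plus) for Hspa5, chr11:48806043-48806045 (plus) for Rack1, chr3:88537179-88537181 (plus) for Mex3a and chr11:32278006-32278008 (plus) for Hba-x. TGA followed by CTAG, searched as TGACTAG on the transcript strand at the annotated stop, was found at 13 of 19291 stop codons (0.0674%). TGA was the stop in 49.8% of these contexts, TAA in 27.3% and TAG in 22.9%.

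Footprint libraries held 11175631 to 58322945 coding counts and 216933 to 1168677 3' UTR counts, and RNA libraries 7017122 to 12853727 and 4659135 to 8119509. Eif3c coding counts, which check the labels, were 756, 737 and 739 CPM (counts scaled to equal coding totals) in the wild-type footprint libraries and 399, 358 and 383 in the mutant ones. The wild-type and mutant levels did not overlap. The sum of 40 neural genes was lower in every mutant pool than in every wild-type pool, at 23824 to 24792 against 25632 to 26627 coding CPM in footprints and 13684 to 14807 against 15838 to 16201 in RNA, and its part in the results was not tested. In bulk samples fewer cells of a type and less RNA per cell cannot be told apart. Erythroid markers summed to 8498 to 14444 in footprints, and mutant pool 1 had the highest erythroid, endothelial and mesenchyme sums (14444, 884 and 1964 CPM).

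The share of footprints in 3' UTRs was low and nearly equal in 5 of the 6 libraries, and mutant pool 2 stood apart. The 3' UTR held 1.69, 1.72 and 1.63% of 5' UTR, coding and 3' UTR footprint counts in wild-type pools 1 to 3, and 1.59, 3.09 and 1.83% in mutant pools 1 to 3. Mutant pool 2 lay above every other library. Mutant pool 1 lay lowest, but its 5' UTR share was high, at 16.7% against 13.9 to 14.0% in wild type, and without 5' UTR counts its 3' UTR share, 1.90%, was within the wild-type range of 1.90 to 2.00%. The means were 1.68 ± 0.0434% in wild type and 2.17 ± 0.805% in mutant (SD, n = 3), and without mutant pool 2 the mutant mean was 1.71%. An exact two-sided permutation test gave p = 0.4 (n = 3 per group), where 0.10 is the smallest p that 3 against 3 allows. In RNA from the same pools the share was 37.9, 36.0 and 37.9% in wild type and 36.7, 39.2 and 36.5% in mutant (exact p = 0.9). Mutant pool 2 thus had the highest 3' UTR share in RNA too.

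In the typical gene, too, mutant pool 2 was highest. The set was 4585 genes with means of at least 100 coding and 20 3' UTR footprints over all footprint libraries. A gene could thus enter through its reads in mutant pool 2. The median ratio of 3' UTR to coding footprints per base was 1.73, 1.78 and 1.72% in wild type. It was 1.74, 3.85 and 1.97% in mutant pools 1 to 3 (exact two-sided permutation p = 0.2, n = 3 per group). In RNA the same genes had medians of 82.4 to 88.5% in wild type and 85.9 to 92.3% in mutant. Long noncoding RNA, which has no annotated coding sequence, gave 1.01, 0.956 and 0.953 footprints per 1000 coding footprints in wild type and 0.947, 1.14 and 1.06 in mutant, over 4699 genes whose exons overlapped no other gene.

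The reads at the stop codon could be told from the reads past it in 1131 genes. These have a transcript that shares the stop codon and has no 5' UTR row, and a 3' UTR of at least 100 bases free of other exons. For them the count over the whole coding sequence plus the 3' UTR count, minus the count of the whole transcript, gives the reads that touch both sides of the stop. Values per 100 coding reads in these genes also use the whole coding sequence, whose count includes the stop-spanning reads. In wild-type pools such stop-spanning reads were 85.0, 83.7 and 86.8% of 3' UTR footprints. In mutant pools they were 85.3, 40.0 and 80.5%. In RNA they were 5.40 to 6.32%. The level rested on the genes and transcripts used. Without the 20 genes with most 3' UTR footprints it was 77.6, 75.5 and 79.7% in wild-type footprints and 75.7, 31.1 and 73.3% in mutant. In 326 genes the transcript without a 5' UTR row is also the one with the highest coding count. For these it was 64.7, 64.9 and 68.2% in wild type and 67.1, 25.4 and 62.9% in mutant.

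Reads past the stop separated mutant pool 2 from the rest, and reads on the stop did not. Stop-spanning footprints per 100 coding footprints were 1.40, 1.46 and 1.46 in wild type and 1.52, 1.34 and 1.42 in mutant (exact permutation p = 0.8, n = 3 per group). Footprints wholly inside the 3' UTR were 0.248, 0.283 and 0.222 per 100 in wild type, and 0.263, 2.01 and 0.344 in mutant (exact permutation p = 0.2). Mutant pool 2 had over 5 times the level of any other library. RNA fragments wholly inside the 3' UTR numbered 39.0 to 45.6 per 100 coding fragments in all RNA libraries. Counts behind these values were 8268, 2777 and 4209 footprints past the stop in wild type and 1684, 13864 and 2722 in mutant. The result was as large without the 20 genes with most 3' UTR counts, at 2.17 per 100 in mutant pool 2 against 0.240 to 0.373 elsewhere.

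**Figure D1:**
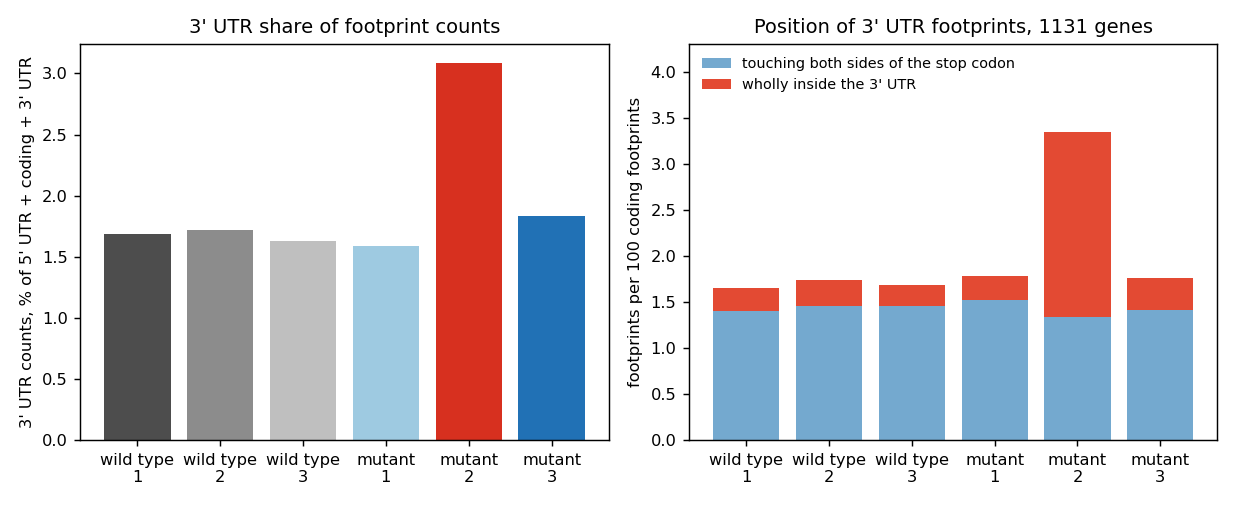
3' UTR footprints by library. Left, the 3' UTR share of footprint counts in each pool, in percent; right, footprints per 100 coding footprints in 1131 genes, divided into those that touch both sides of the stop codon and those wholly inside the 3' UTR. Mutant pool 2 has the tallest bar in both panels, at 3.09% on the left, and its excess on the right lies in reads wholly inside the 3' UTR.

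By stop codon, stop-spanning footprints per 100 coding were lowest for TAG in each of the 6 libraries, and the order of TAA and TGA rested on 1 gene. They were 2.08, 2.13 and 2.25 for the 298 TAA genes in wild type, 1.14, 1.21 and 1.15 for 589 TGA genes, and 0.883, 0.902 and 0.842 for 244 TAG genes. The TAA group holds Hba-x, an embryonic alpha-like globin of red cells, with 25866 stop-spanning wild-type reads. Without Hba-x, the TAA genes had 1.04, 1.13 and 1.04 in wild type and 1.02, 1.06 and 1.09 in mutant, below the TGA genes in each library (1.18, 1.20 and 1.27 for TGA in mutant). Reads past the stop in mutant pool 2 were 1.39, 2.21 and 2.36 per 100 for TAA, TAG and TGA genes, and 1.57 for TAA genes without Hba-x.

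Genes differed in where their 3' UTR footprints lay. Of 207 genes with at least 100 wild-type 3' UTR counts in this set, 20 had over 50% of them past the stop, and the median was 12.1% (interquartile range 4.65 to 30.0%). Hba-x had 174, 44 and 121 reads past the stop in wild-type pools against 13274, 3796 and 8796 on it, so that 1.29% lay beyond. Mex3a, an RNA-binding protein of the Mex3 family, had 277, 108 and 98 past the stop in wild type and 54, 556 and 111 in mutant, with 64.8% beyond in wild type. Its relative Mex3c had 77.7% beyond. Pax2, a transcription factor of spinal interneurons, had 147, 46 and 84 past the stop in wild type and 20, 135 and 26 in mutant. These genes were chosen after their values were seen, as those with many reads past the stop.

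Across the 1131 genes, 3' UTR footprints on both sides of this division ranked with the amount of 3' UTR RNA, summed over the RNA libraries. Spearman's rho between footprints past the stop and RNA fragments past the stop was 0.868, 0.762 and 0.826 in wild-type pools and 0.741, 0.875 and 0.785 in mutant pools. For stop-spanning footprints it was 0.783, 0.752 and 0.767 in wild type and 0.714, 0.754 and 0.728 in mutant. Stop-spanning footprints ranked more closely with coding footprints, a count that includes them. That rho was 0.840, 0.809 and 0.823 in wild type and 0.784, 0.800 and 0.790 in mutant. This is across genes, which share libraries and expression levels, and is a description. The 10 genes with most reads past the stop held 17.5% of the reads past the stop in wild type. In mutant pool 2, ranked on its own reads, the 10 highest held 20.0%.

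The wild-type ratio was described in genes with means of at least 100 coding and 50 3' UTR footprints over all footprint libraries. A gene could thus enter through its reads in mutant pool 2. In these 1931 genes the median wild-type ratio of 3' UTR to coding footprints per base was 1.99% (interquartile range 0.973 to 5.08%). In the 1385 of them whose 3' UTR had at least 100 bases and overlapped no other exon, it was 1.79%. The ratio fell with 3' UTR length, over 5 bins of equal gene number, from a median of 8.25% at 100 to 418 bases, through 3.05, 1.76 and 1.07%, to 0.713% at 2962 to 15925 bases. Stop-spanning reads occupy a fixed stretch, so a ratio per base falls with length by construction. By stop codon the medians were 1.61% for TAA, 1.55% for TAG and 2.01% for TGA, over 411, 287 and 652 genes.

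The 12 highest genes were led by replication-dependent histones. They were Hist1h2ah, Hist1h2ag, Rpl26, Hist1h2ad, Lars2, Hist2h3b, Hist1h2bj, Hist1h2bk, Tymp, Tpr, Dph1 and Hbb-bt. Of these, 6 are histones, whose mRNAs end in a stem-loop and not a poly(A) tail. Annotation limits most of the group: the 3' UTR of Hist1h2ah has 2 bases, that of Rpl26 17 and that of Tpr 28, and those of Tymp and Dph1 overlap the exons of Sco2 and Ncaph2, and of Ovca2. Reads of near-identical histone copies may also be shared between genes. Hist1h2bc, with a 3' UTR of 742 bases, had 3' UTR counts of 101, 102 and 102% of its coding counts in wild type and 100, 102 and 101% in mutant.

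Of the 12, Lars2 and Hbb-bt had 3' UTRs of at least 100 bases free of other exons. Lars2, the mitochondrial leucyl-tRNA synthetase, had 2617, 843 and 2225 3' UTR footprints in wild type, or 89.5, 103 and 143% of its coding counts, and 158, 278 and 214% in mutant. All 3 mutant pools lay above all 3 wild-type pools. Its RNA ratio was also high, at 2526% per base against 300.1 ± 74.5% in wild-type footprints (SD, n = 3). Hbb-bt, an adult beta globin, had 42.8, 44.1 and 46.3% of its coding counts in wild type and 48.6, 39.7 and 40.4% in mutant, and the groups overlapped.

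The 4 lowest genes with 3' UTRs of at least 500 bases were D10Wsu102e, Serbp1, Ssr1 and Calm3. Calm3 encodes calmodulin, the calcium sensor. Its ratio was 0.717, 0.525 and 0.374% of coding counts in wild type and 0.751, 9.57 and 0.789% in mutant. Mutant pool 2, with 278 3' UTR reads, alone stood apart. The minimum of 3' UTR counts could be met through reads in mutant pool 2. The height of Calm3 there may thus be partly set by how the genes were chosen. Ssr1, a subunit of the translocon-associated complex, had 1.08, 1.32 and 1.15% in wild type and 1.26, 3.79 and 1.82% in mutant. The 3' UTRs of D10Wsu102e (122583 bases) and Serbp1 overlap exons of other genes.

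**Figure D2:**
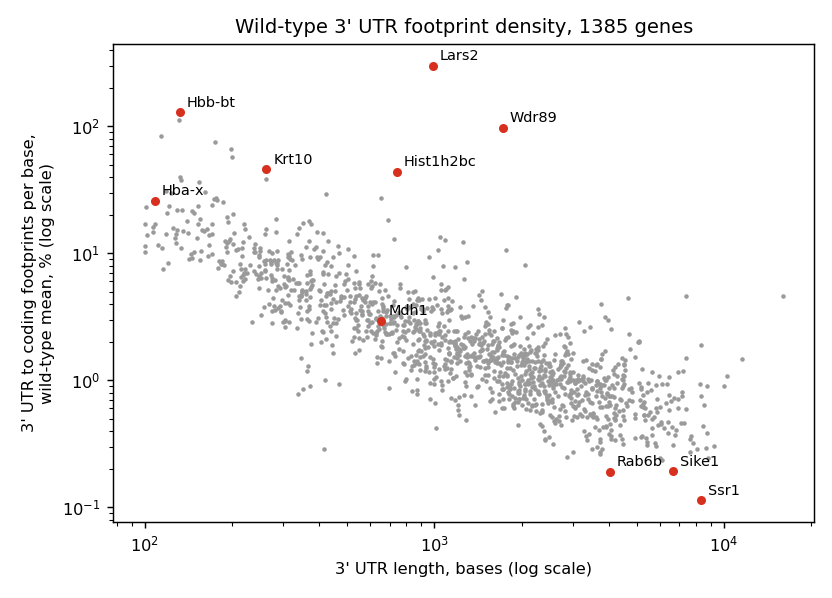
3' UTR footprint density in wild type. Each of 1385 points is a gene with a 3' UTR of at least 100 bases free of other exons; the x axis is 3' UTR length in bases and the y axis the mean ratio of 3' UTR to coding footprints per base in percent, both on log scales. Density falls with length, and Lars2 lies highest, at 300.1%.

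The mutant was compared with wild type in 6049 genes that passed a filter on low counts, by an interaction of gene part and genotype in edgeR's quasi-likelihood test. Each part of a library was scaled by its own TMM factor, so a gene's change is relative to the typical gene of its library. No gene passed an adjusted p of 0.05 (0 of 6049, 0% called), the smallest adjusted p being 0.266, and 983 genes (16.3%) had an unadjusted p under 0.05, 600 of them higher in mutant (9.92%) and 383 lower (6.33%). Without the filter 342 of 14299 genes were called (2.39%), 319 higher (2.23%) and 23 lower (0.161%). DESeq2 called 4 genes, all higher: Mgat5b, Plec, Apba1 and Cnot8. The coefficient of variation among libraries was 20.3%, and it was 6.64% without mutant pool 2. Counts were also simulated with each gene's fitted spread, the same in every library. There, 14% of genes changed by 1 on the log2 scale and 88% of those changed by 2 were recovered. No simulated library was shifted as mutant pool 2 was, so these rates may not hold for the real counts. Scaling both parts by the coding factor, which keeps the overall 3' UTR share in the ratio, moved the median of all genes from 0.00 to 0.31 on the log2 scale and called 0 genes.

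Among rises, the 5 genes of smallest p were Cnot8, Csnk2a1, Hspa5, Apba1 and Raly, each with an adjusted p of 0.266 in edgeR's quasi-likelihood test. Hspa5 encodes the chaperone BiP of the endoplasmic reticulum. Its 3' UTR counts were 0.180, 0.298 and 0.181% of coding counts in wild type and 0.524, 0.775 and 0.710% in mutant, on 91 to 215 3' UTR reads. Every mutant pool lay above every wild-type pool, with a log2 change of 1.34 (SE 0.259). Its RNA ratio changed by -0.02 on the same scale. Cnot8, a deadenylase subunit of the CCR4-NOT complex, had 0.318, 0.472 and 0.418% in wild type and 1.92, 4.87 and 1.38% in mutant, but on 4 to 29 reads.

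Csnk2a1, the catalytic subunit of casein kinase 2, had 5.17, 5.61 and 4.83% in wild type and 12.5, 45.3 and 18.4% in mutant, on 6 to 34 reads. Raly, an RNA-binding protein, had 0.240, 0.529 and 0.438% in wild type and 1.15, 2.10 and 1.07% in mutant. Apba1, a neuronal adaptor protein, had 1.18, 1.41 and 1.01% against 3.89, 17.8 and 4.18%. In all 5 the groups did not overlap, and in Cnot8, Csnk2a1, Apba1 and Raly mutant pool 2 was the highest by far. After each library was scaled to its typical gene, groups did not overlap, with the mutant higher, in 11.8% of the genes tested.

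Among falls, the 5 genes of smallest p were Pgm3, Rack1, Hist2h3b, Dbi and Eef1d, again each with an adjusted p of 0.266 in edgeR's quasi-likelihood test. Rack1, a protein of the small ribosomal subunit, had 2.59, 2.32 and 2.12% of coding counts in wild type and 1.37, 2.11 and 1.36% in mutant, on 178 to 1527 reads. Its mutant pool 2 lay just below the lowest wild-type pool. Of the 389 bases of its 3' UTR, 31 overlap Trim41 on the other strand. Dbi, the acyl-CoA-binding protein, had 13.8, 16.7 and 15.5% against 8.13, 10.2 and 10.5%, a log2 change of -0.98 (SE 0.235). Eef1d, a subunit of the elongation factor 1 exchange complex, had 3.63, 3.28 and 3.06% against 1.95, 2.29 and 1.88%.

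Dbi and Eef1d have 3' UTRs of 60 and 63 bases. In Hist2h3b, a histone H3 gene with a 37-base 3' UTR, values were 31.0, 23.5 and 31.2% in wild type and 11.8, 28.4 and 15.8% in mutant. With the whole coding sequence as denominator its log2 change was 0.09, so its direction rests on the denominator. Pgm3, an enzyme of UDP-GlcNAc synthesis, had 1.96, 1.65 and 1.46% against 0.665, 0.847 and 0.692%, on 5 to 82 reads, and its 3' UTR overlaps an exon of Dop1a. After the same scaling, groups did not overlap, with the mutant lower, in 12.4% of the genes tested.

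The count of calls rested on mutant pool 2. Without it, 96 of 5926 genes passed (1.62%), 69 of them higher (1.16%) and 27 lower (0.456%), while leaving out any other library gave 0. Mutant pool 2 was then put back, with the libraries scaled as in the test. The groups did not overlap in 60 of the 69 and in 25 of the 27, beside 11.8% and 12.4% of all genes. The called genes were chosen on 5 of the same 6 libraries, so this is no further support. Their 3' UTRs had a median GC content of 50.2% for rises and 44.1% for falls, against 44.3% over all genes tested. The ratio moved with GC content in mutant pool 1 too, and its part in these calls was not tested.

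Without mutant pool 2, Hspa5 had a log2 change of 1.51 (SE 0.213) and an adjusted p of 1.2e-04 in edgeR's quasi-likelihood test. Raly had 1.55 (SE 0.265, adjusted p = 0.0012). The 10 largest rises, predicted genes aside, included Cacng3, Ahsa1, Mgat5b, Trmt1l, Cnot8, Plec, Clock, Apba1 and Csnk2a1. Several rest on few reads: Ahsa1, a cochaperone of Hsp90, had 6 to 27 in each pool. Cacng3 had 37, 7 and 30 coding footprints in wild type, and 0 and 7 in mutant pools 1 and 3. Its groups overlapped after scaling once mutant pool 2 was put back.

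On the same terms, the 10 largest falls were Hipk3, Fndc3a, Ctu1, Pttg1, Acp2, Gadd45gip1, Hist2h3b, Tpm3, Ndufc1 and Mllt11. Hipk3, a homeodomain-interacting kinase, had 49, 16 and 16 3' UTR reads in wild type and 1, 11 and 1 in mutant. The reads of mutant pool 2 (4.23% of coding) lay within the wild-type range of 2.24 to 4.81%, far from 0.427 and 0.312% in the other mutant pools. Tpm3, a tropomyosin, had 15.4, 17.1 and 15.8% in wild type and 7.59, 18.0 and 8.64% in mutant. Once mutant pool 2 was put back, Hipk3 and Gadd45gip1 had overlapping groups after scaling, and Tpm3 did not, since the typical gene of mutant pool 2 stood higher.

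**Figure D3:**
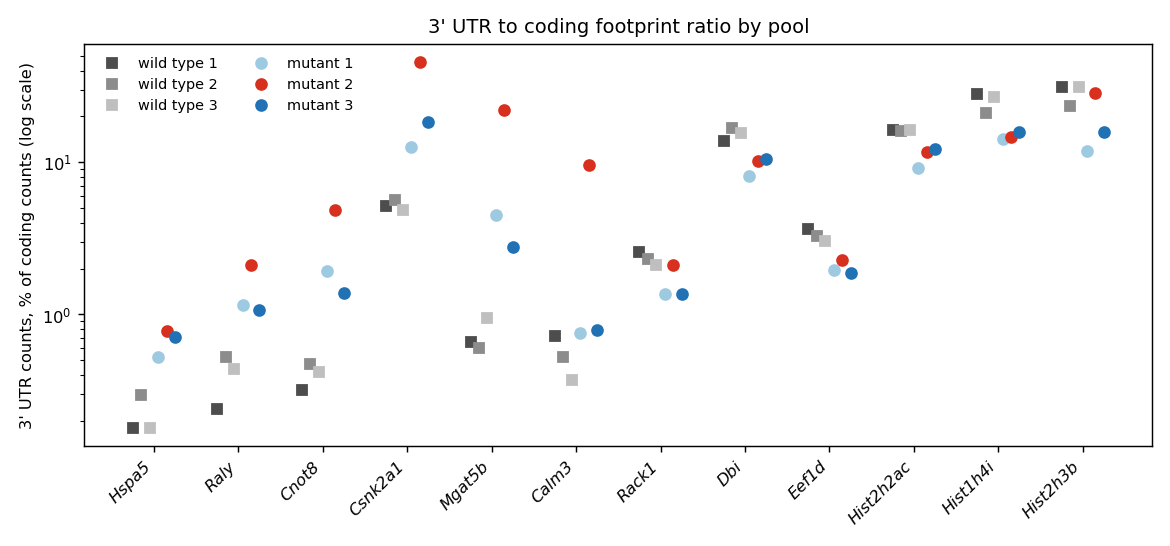
The 3' UTR to coding footprint ratio in each pool for named genes. The y axis is 3' UTR counts as a percentage of coding counts on a log scale; squares are wild-type pools and circles mutant pools. In Hspa5 the 3 mutant pools lie together above wild type. In Calm3 and Mgat5b mutant pool 2 stands far above the others, at 9.57 and 22.1%. Calm3 came from a set that genes could enter through their reads in mutant pool 2.

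Replication-dependent histones mostly had lower ratios in mutant relative to the typical gene. All 27 histones with a 3' UTR row passed the filter. Of them, 25 had a lower estimate in mutant, beside 3020 of all 6049 genes tested. In edgeR's test 12 histones had an unadjusted p under 0.05, beside 16.3% of all genes. None passed the adjusted threshold, and the list's median log2 change was -0.57 against 0.00 over all genes, or -0.30 against -0.02 without mutant pool 2. Without mutant pool 2, 6 of 27 fell, where 0.456% of all genes did: Hist1h2ab, Hist1h2ae, Hist1h4b, Hist1h4i, Hist2h3b and Hist2h2ac. The list's summed 3' UTR counts were 11.4, 9.96 and 11.2% of coding counts in wild type and 9.04 to 10.9% in mutant, so the unscaled sums overlapped.

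Hist1h4i, a histone H4 gene, had 28.2, 21.1 and 26.8% in wild type and 14.3, 14.5 and 15.8% in mutant. Hist2h2ac, a histone H2A gene, had 16.2, 16.1 and 16.3% against 9.15, 11.7 and 12.2%. In both, no mutant pool reached the lowest wild-type pool. Reads shared by near-identical copies make single histone genes uncertain, and the counts of histone genes too. The part of 3' UTR length in these estimates was not tested. Erythroid markers, highest in mutant pool 1, had 7 of 8 tested members with lower estimates and a median of -0.37 (-0.22 without mutant pool 2), and their part in the result was not tested.

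The 14 genes known for stop codon readthrough were all present, and 9 passed the filter. None was called, with log2 changes from -0.95 (Acp2, adjusted p = 0.276 in edgeR's quasi-likelihood test) to 1.14 (Ago1, adjusted p = 0.335). Mdh1, malate dehydrogenase with a peroxisomal readthrough form, had 2.15, 1.76 and 2.21% of coding counts in wild type and 1.80, 1.73 and 2.00% in mutant, and the groups overlapped. Mapk10, the neuronal JNK3 kinase, had 1.39, 1.28 and 1.47% in wild type and 1.70, 7.63 and 1.32% in mutant, with only mutant pool 2 high. Oprl1, the nociceptin receptor, had 5.59, 6.18 and 3.45% against 5.93, 6.44 and 5.13%. Per base, the wild-type ratio of Mdh1 was 2.94 ± 0.353% and that of Mapk10 0.375 ± 0.0253% (SD, n = 3). The median was 3.05% for 3' UTRs of 420 to 936 bases, among which Mdh1 falls with 656, and 0.713% for those of 2962 bases or more, as in Mapk10 with 5235.

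The remaining readthrough genes tested were Sacm1l (-0.62), Bri3bp (0.05), Vegfa (0.54) and Mtch2 (-0.15, log2 changes). Oprk1, Ldhb, Vdr and Aqp4 did not pass the filter. Without mutant pool 2, Acp2, a lysosomal phosphatase whose 3' UTR overlaps exons of Ddb2, fell, with 2.13, 1.58 and 1.76% in wild type and 0.769, 2.27 and 0.789% in mutant.

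Among 23 termination, recycling and initiation factors, 22 had a 3' UTR row and 11 passed the filter, 4 with higher and 7 with lower estimates. None was called, and log2 changes ran from -0.63 (Eif1ax) to 0.48 (Hbs1l, a ribosome rescue factor). Etf1, which encodes eRF1, had 1.63, 1.59 and 1.56% in wild type and 1.81, 2.79 and 1.87% in mutant. Gspt1, for eRF3, had 0.922, 1.11 and 0.753% against 0.900, 0.978 and 1.19%. Abce1, the recycling ATPase, had 2.42, 1.94 and 2.18% against 1.71, 3.12 and 1.60%. Etf1 was translated at 269, 251 and 246 coding CPM of footprints in wild type and 191, 249 and 256 in mutant, and the groups overlapped. The others tested were Mcts1 (-0.25), Denr (0.00), Eif1b (-0.10), Eif5b (0.42), Paip1 (-0.58) and Paip2 (0.03).

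Eif3c itself had 3' UTR counts of 0.473, 0.581 and 0.598% of coding counts in wild type and 0.798, 0.693 and 0.687% in mutant. Its log2 change was 0.11 (SE 0.288, adjusted p = 0.859 in edgeR's quasi-likelihood test). All 13 eIF3 subunits had a 3' UTR row, 10 passed the filter and none was called, with a median of -0.02 (0.08 without mutant pool 2). Ptch1, the Hedgehog receptor, had 1.79, 2.09 and 1.08% in wild type and 2.13, 8.98 and 3.01% in mutant, a log2 change of 1.04 (adjusted p = 0.278 in edgeR's test). Of 15 Hedgehog pathway genes, 5 passed the filter, 4 with higher estimates, with a median of 0.95. In Ptch1, Gli3, Sufu and Cdon mutant pool 2 gave the highest ratio, in Shh it did not, and without it the median was 0.52. Gli3 changed by 0.41 and Shh by -0.71, while Gli1, Gli2, Smo and Atf4 did not pass the filter.

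None of the other lists held a called gene with all 6 libraries. Without mutant pool 2 the one further call was Rack1, in the list of stalled ribosome rescue factors. Selenoproteins, whose in-frame TGA is read as selenocysteine, had 10 of 24 members tested, 6 with lower estimates, and a median of -0.20 that was 0.11 without mutant pool 2. Selenoh, of nuclear thiol metabolism, had 4.97, 5.63 and 5.13% in wild type and 2.56, 4.17 and 3.06% in mutant (log2 change -1.01, adjusted p = 0.266 in edgeR's test). Nonsense-mediated decay factors had 10 of 14 tested and a median of 0.27, which was -0.01 without mutant pool 2. In this list Smg5 had 1.14, 1.04 and 0.882% in wild type and 2.06, 27.2 and 2.45% in mutant.

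The excess of mutant pool 2 was spread over most genes of a set that met a minimum of counts. The set held 3458 genes with a 3' UTR of at least 100 bases free of other exons. Such a minimum may let genes in through their reads in mutant pool 2. The ratio of mutant pool 2 was above the wild-type mean in 83.3% of them. Its median difference was 0.74 on the log2 scale (interquartile range 0.21 to 1.59). The medians of mutant pools 1 and 3 were -0.05 and 0.15, and those of wild-type pools -0.01, 0.06 and -0.03. A ratio over 2 times the wild-type mean, a log2 difference over 1, was found in 40.8% of genes in mutant pool 2, in 3.85% in pool 1 and in 4.40% in pool 3.

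The difference rose with 3' UTR length and with GC content. Stop-spanning reads occupy a fixed stretch, so an even excess past the stop gives a larger difference in longer 3' UTRs by construction. Whether the rise with length goes beyond that was not tested. In mutant pool 2 the median was 0.26 in the first of 5 bins by length (100 to 483 bases) and 1.59 in the last (3003 to 16600 bases). By GC content it was 0.28 in the first of 5 bins (23.5 to 37.7% GC) and 1.65 in the last (51.2 to 78.2%). With genes in 3 bins by length and 3 by GC content, it was 3.02 over the 276 genes in the last bin of both, against 0.14 over the 356 genes in the first bin of both. Mutant pool 1 went from -0.25 to 0.17 over the bins of GC content, and mutant pool 3 from 0.08 to 0.28. Wild-type pools stayed between -0.06 and 0.07 over the same bins. By stop codon, mutant pool 2 had medians of 0.57 for TAA, 0.94 for TAG and 0.77 for TGA.

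**Figure D4:**
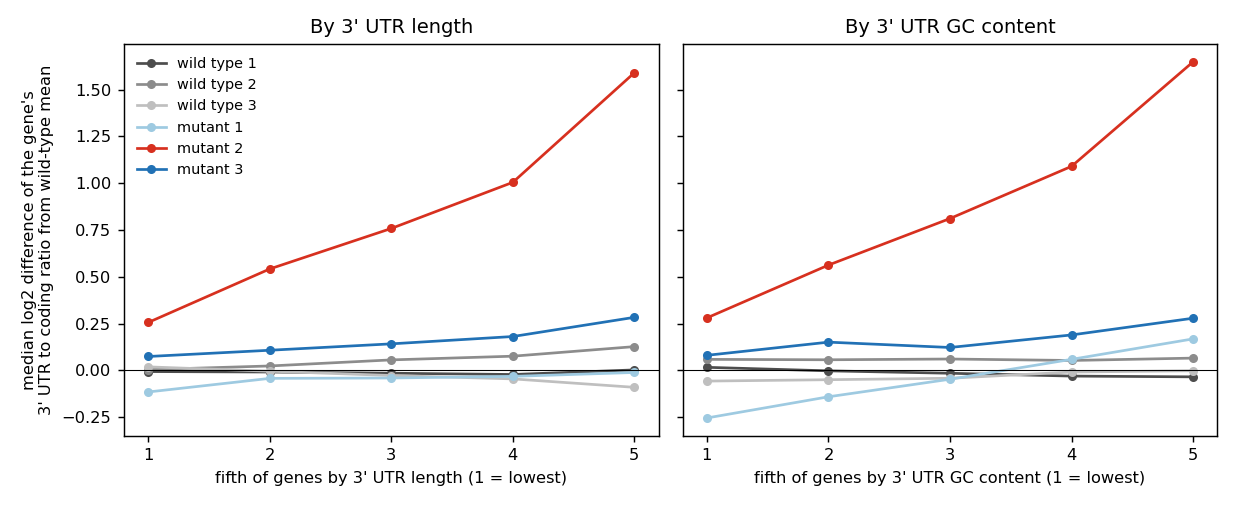
Difference of each library's 3' UTR to coding ratio from the wild-type mean, by 3' UTR length and GC content. The x axes are 5 bins of 3458 genes by length and of those with a sequence by GC content, the y axis is the median log2 difference, and lines are libraries. Mutant pool 2 climbs from 0.26 to 1.59 with length and from 0.28 to 1.65 with GC content, and mutant pool 1 rises with GC content from -0.25 to 0.17.

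In RNA, the 3' UTR to coding ratio was tested in 12014 genes, and 2 were called (0.0166%). The ratio of Tma7, a small translation machinery-associated protein, rose (1 of 12014, 0.00832%), with 73.2, 58.8 and 63.8% of coding counts in wild type and 132, 138 and 97.1% in mutant (log2 change 0.87, SE 0.161, adjusted p = 0.019 in edgeR's quasi-likelihood test). The ratio of Rpl22, a large-subunit ribosomal protein, fell (also 0.00832%), with 120, 123 and 145% in wild type and 93.0, 117 and 105% in mutant (log2 change -0.34, SE 0.0623, adjusted p = 0.019). DESeq2 called 0, and 576 genes had an unadjusted p under 0.05 in edgeR. Tma7 did not pass the footprint filter, and Rpl22 had a footprint log2 change of -0.26 (adjusted p = 0.606). The next genes by p, with none called, were Hmgb3, Chd7, Nap1l1 and Syne2 for rises and Itsn1, Wdr12, Panx1 and Sh3glb1 for falls.

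The footprint change minus the RNA change was called in 121 of 6019 genes (2.01%), 94 higher (1.56%) and 27 lower (0.449%), in the fit over all 12 libraries. That fit uses 1 estimate of spread for both assays, 10.1%, while footprints alone had 20.3% and RNA 2.66%. With the difference taken within each pool and tested with limma, which lets the pools set the spread, 0 genes were called, the smallest adjusted p was 0.324 and 801 genes had an unadjusted p under 0.05. Leaving out any 1 wild-type pool also gave 0. The 10 largest rises in the joint fit were Tmem151b, Mgat5b, Plec, Icmt, Nf2, Tom1l2, Shank3, Agpat3, Micall1 and Cnot8, from 2.52 to 3.63 on the log2 scale. Mgat5b, a brain N-acetylglucosaminyltransferase, had 0.664, 0.602 and 0.942% of coding footprints in wild type and 4.47, 22.1 and 2.75% in mutant. Nf2, the merlin tumour suppressor, had 0.613, 1.01 and 1.18% against 2.13, 20.2 and 2.22%.

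The 10 largest falls were Fam241a, Pgm3, Tmem203, Babam2, Usp33, Asns, Ranbp2, Srm, Uba3 and Bag6, from -1.17 to -2.22. Asns, asparagine synthetase, had 1.87, 1.63 and 1.78% of coding footprints in wild type and 0.967, 1.27 and 0.836% in mutant. Srm, spermidine synthase, had 2.97, 4.86 and 3.11% against 1.61, 1.93 and 2.16%. In Asns and Srm no mutant pool reached the lowest wild-type pool. After scaling, the footprint groups did not overlap in 90 rises and in all 27 falls, beside 11.8% and 12.4% of all genes. Predicted genes were left out of the 90 but not of the 94 rises called. The genes were called on these same libraries, so this is no further support.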

How the data were processed

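The counts are reads per transcript part, made by the authors for each lane and deposited as whole numbers. Per the submitters' processing notes they used cutadapt, STAR and bedtools with mm10, while whether reads were counted by strand is not stated in the labels. Lanes and runs were summed, except 4 lanes of mutant footprint pool 1 that held counts on 3 chromosomes at most. Identifiers were matched to GENCODE vM21. edgeR 4.0.16 in R 4.3.3 tested 3' UTR against coding counts by genotype, with the library as a block, filterByExpr (minimum count 10), TMM per part and Benjamini-Hochberg adjustment over all genes at 0.05. limma, DESeq2 and the settings in the closing section were alternatives. The tests were checked on simulated counts. SE is the log2 change over the square root of F. Pools came from litters, so p-values measure the spread between 3 pools. Genes were named by a rule (highest and lowest wild-type ratios, largest called changes, else smallest p, and listed genes), and the members, lists and rule were chosen with earlier results of these data known. Footprint depth was 11175631 to 58322945 coding counts. Same-numbered pools did not deviate together, so numbers were not used to pair them. Some genes that the rule names are not reported here.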

Additional observations from a re-analysis of the deposited data

How the results depend on the processing

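The limits are few pools, reads shared by isoforms and copies, and 1 mutant pool that stands apart. For footprints, the count of called genes was 0 under each alternative except no filter (342), DESeq2 (4) and one of those that leave out a replicate, which ran from 0 to 96, the 96 coming without mutant replicate 2. For RNA the 2 calls became 5 with no filter, 0 with DESeq2, 0 with limma, 0 with the whole coding sequence, 1 with the coding scale, 4 without overlaps, 4 in 3' UTRs of at least 100 bases, 3 with the replicate block, and 0 to 4 when leaving out replicates. For footprints minus RNA the 121 calls became 883 with no filter, 499 with means of 20 counts, 34 with DESeq2, 0 with the coding scale, 0 with the replicate block, 0 with limma within pools, and 0 to 1238 when leaving out replicates. The replicate block gave 0 calls for footprints. Correlations of same-numbered pools were 0.07, 0.08 and -0.05 in footprints. The cause of these differences was not tested.

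The mutant minus wild-type share of footprints in 3' UTRs was 0.488 percentage points and ran from 0.0290 to 0.779 when leaving out replicates, lowest without mutant replicate 2. The median gene ratio difference was 0.773 and ran from 0.107 to 1.16. With a minimum of 500 coding and 100 3' UTR counts it was 0.483. Reads past the stop differed by 0.619 per 100 coding and ran from 0.0521 to 0.924. The RNA share difference, 0.228, ran from -0.634 to 0.704, and was -0.401 without wild-type replicate 2 and -0.634 without mutant replicate 2. Of the alternatives for 64 named genes, 798 gave the same call and direction, 158 lost a call, 28 gained one and 34 turned direction.

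The turned log2 changes were 0.087 for Hist2h3b with the whole coding sequence, -0.038 for Bri3bp and -0.048 for Paip2 with no filter, and, with the coding scale, 0.25 for Oprl1, 0.15 for Mtch2, 0.15 for Gspt1, 0.038 for Mcts1, 0.30 for Denr and 0.20 for Eif1b. Denr, at 0.00 in the main test, was 0.026 with DESeq2, 0.016 with limma, 0.017 with means of 20 counts, 0.016 with the replicate block and 0.0037 with the other transcript choice. When leaving out replicates, the lowest and highest values were -0.13 and 0.38 for Eif3c, -0.11 and 0.66 for Gli3, -0.016 and 1.23 for Mapk10, -0.35 and 0.069 for Oprl1, -0.016 and 0.076 for Bri3bp, -0.0043 and 0.82 for Vegfa, -0.60 and 0.17 for Mtch2, -0.37 and 0.14 for Gspt1, -0.10 and 0.92 for Hbs1l, -0.82 and 0.35 for Mcts1, -0.25 and 0.22 for Denr, -0.19 and 0.031 for Eif1b, -0.38 and 0.71 for Eif5b, and -0.17 and 0.26 for Paip2.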
